A study of Mus musculus with 9 samples.

Results

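The mitochondrial carriers of the Slc25 family were described in the mouse renal carcinoma line RENCA. Members were the rows of the deposited gene table whose biotype is protein-coding and whose name is Slc25a followed by a number. The rule gave 47 of the 54532 genes in the table, and 40 of them had enough counts to be tested. The 7 others were Slc25a2, Slc25a18, Slc25a21, Slc25a31, Slc25a41, Slc25a43 and Slc25a54. Family members with other names, such as the uncoupling protein Ucp2, are left out by the rule. Sums and ranks below therefore cover the 47 rows only. The rule uses names and biotypes and no measured value, though it was set with earlier results of these data known. The files hold no measure of transport, and the roles given below are background.

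Slc25 carriers are small integral proteins, most of them in the mitochondrial inner membrane, that let nucleotides, phosphate, carboxylates, amino acids, cofactors and metals cross a membrane that is otherwise closed to them. They link the enzymes of the matrix to those of the cytosol, for example in the malate-aspartate shuttle, in citrate export for lipid synthesis and in the exchange of ADP for ATP. The kidney tubule is rich in mitochondria and relies on such exchange. Ndufa4l2, the gene edited in this series, is a mitochondrial paralogue of the cytochrome oxidase subunit Ndufa4 and is known as a target of hypoxia-inducible factors in renal carcinoma.

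The study sequenced poly(A) RNA from 3 groups of RENCA cells with 3 libraries each. Rescue cells (labelled NDUFA4L2 +/+) are knockout cells that carry a lentiviral NDUFA4L2 expression vector with a puromycin resistance cassette and were selected in puromycin. Knockout cells (labelled NDUFA4L2 -/-) were edited by CRISPR/Cas9 with 1 guide, raised as single-cell colonies and screened by qPCR. Empty vector cells (labelled WT) are the control. All groups grew in the same supplemented RPMI medium with serum. How many clones were used, the promoter of the rescue vector, and whether knockout cells saw virus or puromycin are not given in the sources used here. Nothing in the labels says that the libraries of a group came from separate cultures, so p-values cover no more than differences among these libraries, and those may be technical.

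Total counts were 15164167 to 26643877 in rescue libraries, 13106531 to 25305299 in knockout libraries and 14685134 to 24172162 in empty vector libraries. Ndufa4l2 had 73, 48 and 35 counts in the rescue libraries, 7, 8 and 6 in the knockout libraries and 12, 6 and 16 in the empty vector libraries, so its RNA separated the rescue cells from the others and did not separate knockout from empty vector cells (log2 change -0.36 ± 0.42 SE, adjusted p = 0.472). Genes of the mitochondrial genome took 2.23 to 2.65% of counts in rescue, 5.79 to 7.93% in knockout and 2.16 to 3.17% in empty vector libraries. Leaving those genes out before scaling gave the same counts of called carriers in all 3 comparisons. Of 10 epithelial and renal markers, Krt8, Krt18, Pax8, Pax2 and Cdh16 were present in every group, and Krt19 and Epcam were at or near 0. The 10 markers summed to 1326 to 1377 CPM in rescue, 1609 to 1736 CPM in knockout and 992 to 1217 CPM in empty vector libraries. The summed level of 9 leukocyte markers was 39.0 to 44.4 CPM in rescue, 211 to 228 CPM in knockout and 78.3 to 84.0 CPM in empty vector libraries. Cd68, a lysosomal membrane protein that many cell types make, held most of that sum (35.9, 205 and 76.3 CPM in rescue, knockout and empty vector), while Cd3e, Itgam and Adgre1 had no count in any library and Ptprc and Tyrobp were at or near 0. All 4 leukocyte markers that could be tested, Cd68, Lyz2, Csf1r and Cd79a, were higher in knockout than in empty vector cells and lower in rescue than in knockout cells. Against empty vector cells the knockout log2 change was 1.43 (adjusted p = 1.79e-12) for Cd68, 2.96 (adjusted p = 9.92e-10) for Lyz2, 1.83 (adjusted p = 3.51e-06) for Csf1r and 0.61 (adjusted p = 0.00893) for Cd79a. Lyz2, the lysozyme of myeloid cells, averaged 1.15, 7.49 and 0.949 CPM in rescue, knockout and empty vector. The summed level of 5 fibroblast markers, mostly Pdgfrb, was 28.4 to 30.5 CPM in rescue, 60.7 to 71.2 CPM in knockout and 26.5 to 33.6 CPM in empty vector libraries, and that of 4 endothelial markers stayed at or below 1.08 CPM in every library. The part of these differences in the results below was not tested.

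Together the 47 carriers took 0.347 to 0.358% of counts in rescue, 0.283 to 0.3003% in knockout and 0.328 to 0.333% in empty vector libraries. CPM values below are counts scaled to a common library size by TMM factors, a scaling that sets the bulk of genes level between libraries. On that scale the carriers summed to 3299 to 3418 CPM in rescue, 3100 to 3201 CPM in knockout and 3139 to 3291 CPM in empty vector libraries. Slc25a3 and Slc25a39 alone held 42.4 to 44.8% of the carriers' counts in each library. In bulk RNA, fewer cells that express a gene and less RNA per cell cannot be told apart.

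Levels of different carriers were compared per length, as the authors' FPKM (fragments scaled to gene length and library size). Slc25a39, a glutathione carrier, was the highest in every group, with 195 ± 6.42 FPKM in rescue, 211 ± 4.12 FPKM in knockout and 199.96 ± 9.84 FPKM in empty vector cells (SD, n = 3 each). The phosphate carrier Slc25a3 and the ADP/ATP carriers Slc25a5 and Slc25a4 followed in each group. Slc25a3 averaged 164 FPKM in rescue, 138 FPKM in knockout and 152 FPKM in empty vector cells, with Slc25a5 at 149.7, 139 and 108 FPKM in those groups. In knockout cells Slc25a5 (139 ± 5.005 FPKM) and Slc25a3 (138 ± 0.478 FPKM) differed by less than the spread of Slc25a5 between libraries (SD, n = 3 each). Slc25a33, a pyrimidine nucleotide carrier, and Slc25a1, the citrate carrier, came next, with Slc25a1 above Slc25a33 in rescue and knockout cells and below it in empty vector cells. At the low end Slc25a31, the ADP/ATP carrier of the male germ line, had no count in any library, and Slc25a43 and Slc25a54 had a single count each, in rescue replicate 1. A count of 0 allows up to 3 counts, which is 0.107 to 0.248 CPM depending on the library, and covers counting error only.

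**Figure D1:**
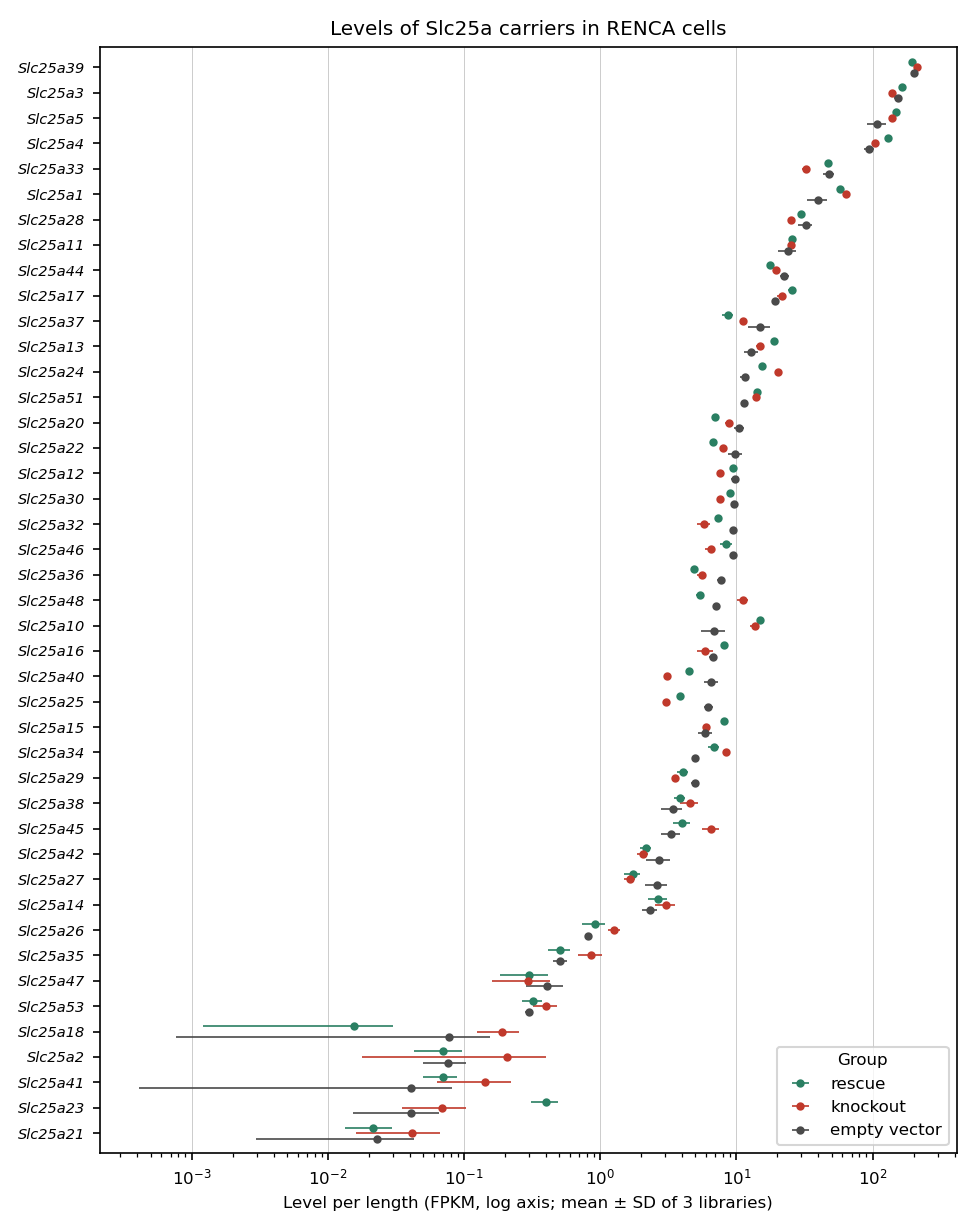
Mean level per length of Slc25a carriers with a count in every group (FPKM on a log axis, error bars SD over 3 libraries), with rescue, knockout and empty vector as 3 colours. Slc25a39, Slc25a3, Slc25a5 and Slc25a4 stand at the top in all groups, with Slc25a39 at 195, 211 and 199.96 FPKM in rescue, knockout and empty vector cells.

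Against empty vector cells, knockout cells had 13 of the 40 tested carriers higher and 17 lower. A carrier or gene was called where edgeR's quasi-likelihood test gave a Benjamini-Hochberg adjusted p under 0.05 over all 13326 genes tested. Those shares were 32.5% and 42.5% of the carriers, beside 29.5% higher and 31.1% lower of all genes tested. Slc25a10, Slc25a45, Slc25a24, Slc25a35, Slc25a34, Slc25a1, Slc25a48 and Slc25a26 were at least 1.5-fold higher (8 of 40, beside 15.5% of all genes), and Slc25a40, Slc25a25, Slc25a32 and Slc25a27 were at least 1.5-fold lower (4 of 40, beside 12.0% of all genes). The median log2 change was 0.03 over the carriers and -0.02 over all genes. The carriers thus moved in both directions, and their shares were not tested against those of all genes. Scaling by library totals alone, which lowered the median of all genes by 0.15 on the log2 scale, gave 9 higher and 18 lower. Beside these, 2906 of 13326 genes were higher and 5544 lower with that scaling.

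Rescue cells were compared with the knockout cells they derive from. In rescue cells 15 of 40 carriers were higher and 11 lower than in knockout cells, or 37.5% and 27.5%, beside 29.5% and 27.3% of all genes. Only Slc25a23 was at least 1.5-fold higher (1 of 40, beside 7.85% of all genes). It passed the filter on low counts through its rescue libraries alone, on 8, 2 and 10 knockout counts, so a carrier kept that way had to be higher in rescue and nothing is read from this count. The 15 higher carriers include it. Slc25a48, Slc25a35 and Slc25a45 were at least 1.5-fold lower (3 of 40, beside 15.1%). The median log2 change was 0.11 over the carriers and 0.03 over all genes. With library totals alone, 20 carriers were higher and 4 lower, beside 5916 and 2582 of 13326 genes. That scaling raised the median of all genes by 0.18 on the log2 scale. The count of lower carriers thus depended on the scaling. That count was also 6 without knockout replicate 2 (beside 3422 of 13862 genes). It was 7 without rescue replicate 2 (beside 3384 of 13909) or rescue replicate 3 (beside 3403 of 13913).

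Against empty vector cells, rescue cells had 12 of 40 carriers higher and 11 lower, or 30% and 27.5%, beside 22.4% and 25.1% of all genes. Slc25a23, kept by the filter through its rescue libraries, and Slc25a10 were at least 1.5-fold higher (2 of 40, beside 6.33%), and Slc25a37, Slc25a25, Slc25a36 and Slc25a20 at least 1.5-fold lower (4 of 40, beside 8.25%). The median log2 change was -0.02 over both the carriers and all genes. The comparisons share libraries, and their values for a carrier are given side by side below as descriptions of the same 9 libraries. Empty vector replicate 1 was the library farthest from its group's median for 23 of the 40 carriers.

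**Figure D2:**
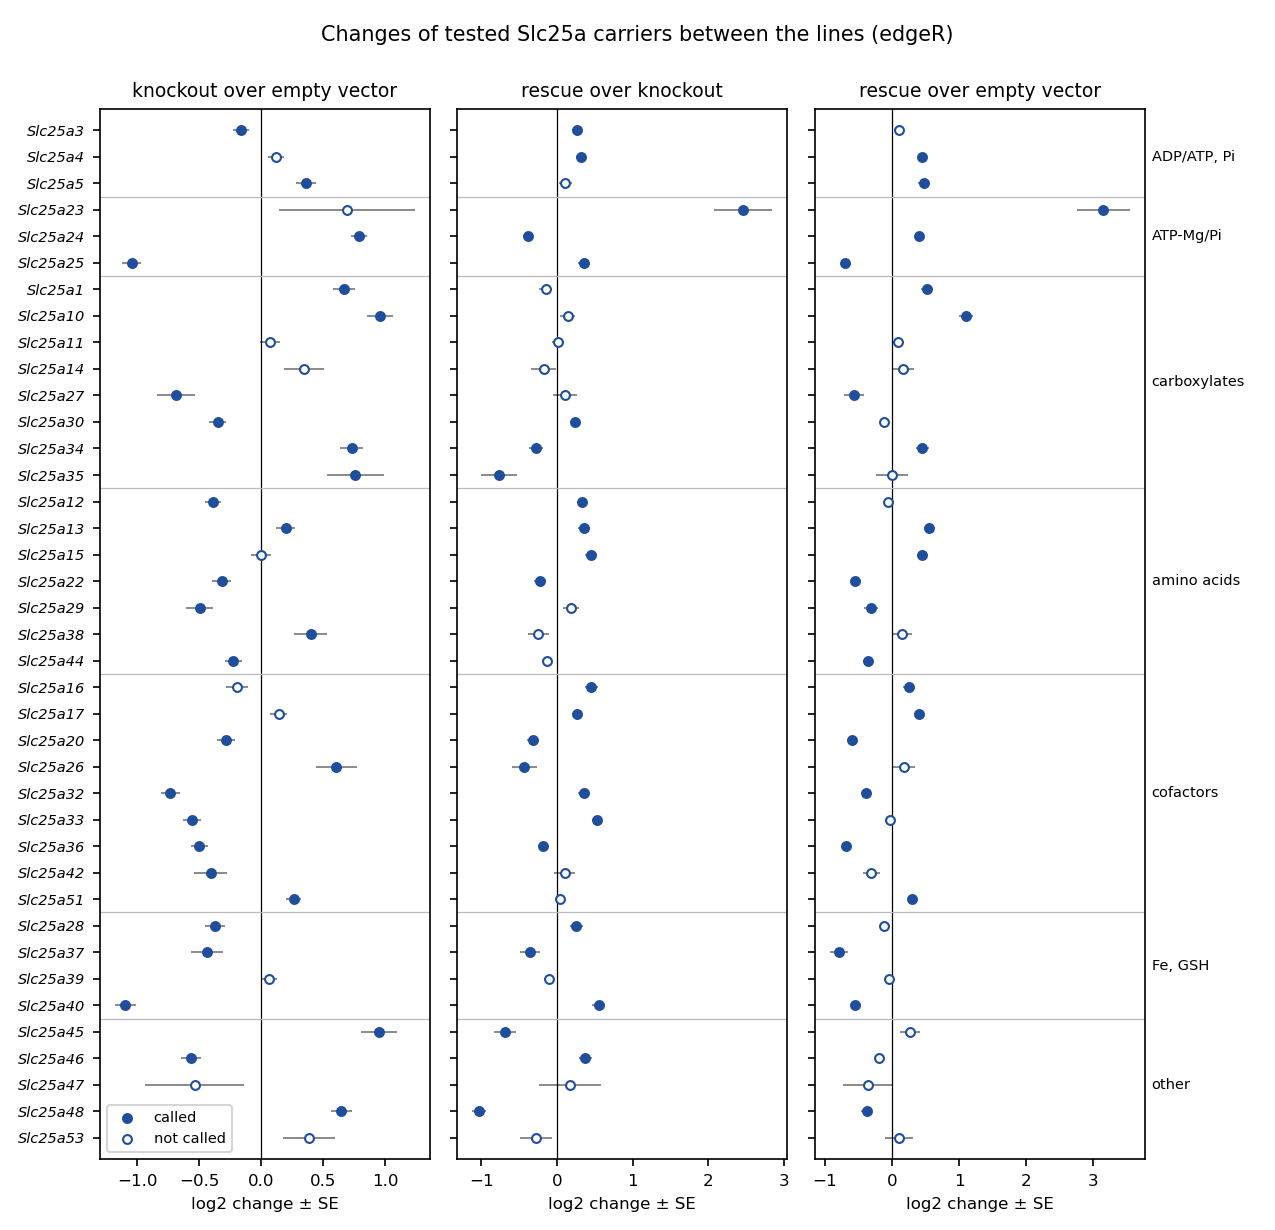
Log2 change ± SE of 39 of the 40 tested carriers in the 3 comparisons (edgeR), ordered by substrate group; filled points passed an adjusted p of 0.05 and open points did not. The horizontal scales differ between panels. The point of Slc25a23 in rescue over empty vector (3.15) lies far from the others. This carrier passed the filter on low counts through its rescue libraries alone.

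Promoter sequences are shown for 3 carriers that were lower in both knockout and rescue cells than in empty vector cells, Slc25a40, Slc25a25 and Slc25a36. They were chosen after their values and matches were seen. Where a carrier had several windows, the window with the most of the searched words was printed. Each window shown is the 250 bases before a RefSeq transcript start (GRCm38.p6, the same build as mm10), in the direction of the gene. Capitals mark a word that was found. The glutathione carrier Slc25a40 (chr5:8422588-8422837, plus strand) has a window of 78.0% G and C in which none of the searched words occurs. The ATP-Mg/phosphate carrier Slc25a25 (chr2:32424067-32424316, minus strand) has TGACGTCA, the word of cyclic AMP response elements, 150 to 143 bases before the start. RefSeq gives the gene several starts, and among its windows only the printed window holds TGACGTCA. The bases after this start match none of the gene's transcripts in the GENCODE annotation used here. The pyrimidine nucleotide carrier Slc25a36 (chr9:97111042-97111291, minus strand) has the E-box CACGTG 187 to 182 bases and TGACGTCA 161 to 154 bases before its start.
Slc25a40: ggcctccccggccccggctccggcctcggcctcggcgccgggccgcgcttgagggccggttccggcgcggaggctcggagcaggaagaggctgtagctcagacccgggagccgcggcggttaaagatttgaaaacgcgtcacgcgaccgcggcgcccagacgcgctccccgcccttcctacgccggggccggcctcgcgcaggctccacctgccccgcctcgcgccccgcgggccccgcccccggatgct
Slc25a25: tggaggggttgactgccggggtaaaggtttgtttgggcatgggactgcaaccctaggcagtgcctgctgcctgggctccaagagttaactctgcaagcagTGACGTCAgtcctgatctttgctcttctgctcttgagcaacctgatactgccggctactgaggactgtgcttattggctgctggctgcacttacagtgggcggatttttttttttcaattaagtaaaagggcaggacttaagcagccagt
Slc25a36: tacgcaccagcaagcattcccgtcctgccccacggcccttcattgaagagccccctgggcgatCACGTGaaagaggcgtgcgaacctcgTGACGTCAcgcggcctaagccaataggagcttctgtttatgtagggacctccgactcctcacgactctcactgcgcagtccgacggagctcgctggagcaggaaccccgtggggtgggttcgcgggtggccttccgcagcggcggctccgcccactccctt
In all, 36 of the 47 carriers, 31 of them tested, had 46 windows. Both strands of each window were searched for 5 words, which do not overlap in the sequences shown. TGACGTCA was in 2 of the 46 windows and in 1.55% of 32851 windows of all genes. The E-box CACGTG was in 8 windows of 7 carriers (17.4% of windows, against 6.02% of all), among them Slc25a1, Slc25a13, Slc25a33 and the untested Slc25a31. The ETS word CCGGAAG was in 6 windows (13.04%, against 6.91%), including that of the untested Slc25a54. The NRF1 word GCGCATGC was in 2 windows (4.35%, against 2.26%), those of Slc25a31 and Slc25a54, so no tested carrier had it in a window. The amino acid response word TGATGNAA was in none of the carriers' windows and 3.45% of all. Carriers with one word moved in different directions: among E-box carriers Slc25a1 was higher, and Slc25a33 and Slc25a36 lower, in knockout than in empty vector cells. A match describes the letters of the window and is not evidence of a binding site, and a word without a match is only absent from that window.

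Of the adenine nucleotide and phosphate carriers, which bring ADP and phosphate to the ATP synthase and take ATP out, 1 of 3 tested was higher and 1 lower in knockout than in empty vector cells, beside 29.5% and 31.1% of all genes. Rescue cells had 2 of 3 higher than knockout cells, beside 29.5% of all genes, and 2 of 3 higher than empty vector cells, beside 22.4%. Slc25a5, the ADP/ATP carrier of proliferating cells (chrX:36795651-36798807, plus strand), had 237, 251 and 256 CPM in the rescue libraries, 230.5, 221 and 238 in the knockout libraries and 209.9, 163 and 164 in the empty vector libraries. All empty vector libraries lay below all others, with replicate 1 closest to them. The log2 change was 0.36 ± 0.08 (SE; adjusted p = 0.00100) in knockout against empty vector, 0.47 ± 0.08 (SE; adjusted p = 1.34e-04) in rescue against empty vector and 0.11 ± 0.08 (SE; adjusted p = 0.263) in rescue against knockout. Slc25a4, the ADP/ATP carrier of heart and muscle (chr8:46206797-46211284, minus strand), had 291, 321 and 308 CPM in the rescue libraries, 242, 239.9 and 254 in the knockout libraries and 244, 212 and 221 in the empty vector libraries. Rescue libraries stood above all others, and knockout and empty vector libraries overlapped. The change was 0.32 ± 0.07 (SE; adjusted p = 3.69e-04) against knockout and 0.44 ± 0.07 (SE; adjusted p = 2.10e-05) against empty vector, and knockout against empty vector gave 0.12 ± 0.07 (SE; adjusted p = 0.125). The phosphate carrier Slc25a3, which also carries copper, had 898, 933 and 925 CPM in the rescue libraries, 765, 763 and 770.0 in the knockout libraries and 892, 816 and 859.5 in the empty vector libraries. Knockout libraries were the lowest 3 of the 9, with log2 changes of -0.16 ± 0.06 (SE; adjusted p = 0.0394) against empty vector and 0.26 ± 0.06 (SE; adjusted p = 0.00185) for rescue against knockout. The first of these small changes lost its call in 8 of the alternatives, among them other size factors (adjusted p = 0.1001).

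Of 3 tested calcium-regulated ATP-Mg/phosphate carriers, which set the adenine nucleotide content of the matrix, Slc25a24 was higher and Slc25a25 lower in knockout than in empty vector cells, and Slc25a23 was highest in rescue cells. Slc25a24 (chr3:109123149-109168457, plus strand) had 51.4, 51.8 and 55.5 CPM in the rescue libraries, 67.2, 69.1 and 70.9 in the knockout libraries and 42.5, 38.0 and 39.1 in the empty vector libraries. The groups did not overlap, with rescue between knockout and empty vector. Its log2 change was 0.79 ± 0.07 (SE; adjusted p = 4.38e-09) in knockout against empty vector, -0.39 ± 0.06 (SE; adjusted p = 4.02e-05) in rescue against knockout and 0.40 ± 0.07 (SE; adjusted p = 4.93e-05) in rescue against empty vector. Slc25a25 (chr2:32414487-32451445, minus strand), whose promoter window is printed above, had 30.6, 31.3 and 29.9 CPM in the rescue libraries, 24.8, 23.1 and 23.9 in the knockout libraries and 45.5, 54.3 and 49.1 in the empty vector libraries. Again rescue libraries lay between the others, with the order turned round. The change was -1.05 ± 0.08 (SE; adjusted p = 7.12e-10) in knockout against empty vector, 0.35 ± 0.08 (SE; adjusted p = 6.87e-04) in rescue against knockout and -0.70 ± 0.07 (SE; adjusted p = 3.53e-07) in rescue against empty vector. Slc25a25 shares 989 bases with Naif1 on the other strand, which was not called in any comparison (9.25, 10.4 and 11.1 CPM in rescue, knockout and empty vector). Slc25a23 (chr17:57043711-57059863, minus strand) was low everywhere, with 68, 43 and 25 counts in the rescue libraries, 8, 2 and 10 in the knockout libraries and 6, 1 and 8 in the empty vector libraries, or 2.42, 2.36 and 1.57 CPM in the rescue libraries, 0.509, 0.165 and 0.421 in the knockout libraries and 0.266, 0.0643 and 0.321 in the empty vector libraries. Every rescue library exceeded every other library. The log2 change was 2.46 ± 0.38 (SE; adjusted p = 1.72e-05) in rescue against knockout and 3.15 ± 0.40 (SE; adjusted p = 2.98e-06) in rescue against empty vector, while knockout against empty vector gave 0.69 ± 0.55 (SE; adjusted p = 0.286) on a handful of counts. Because the rescue libraries alone brought it past the filter, it was not tested when only knockout and empty vector libraries were fitted. With no filter on low counts, the log2 change was 2.50 (adjusted p = 1.19e-09) in rescue against knockout and 3.15 (adjusted p = 2.28e-13) in rescue against empty vector. Slc25a23 overlaps Crb3 on the opposite strand, and Crb3 was not higher in rescue (log2 change -0.28, adjusted p = 0.0299, against knockout, and -0.09, adjusted p = 0.486, against empty vector). Slc25a41, a short relative, had 0 to 7 counts a library and was not tested.

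Among carriers of di- and tricarboxylates and their relatives, 4 of 8 tested were higher and 2 lower in knockout than in empty vector cells, beside 29.5% and 31.1% of all genes, with a median log2 change of 0.51. Slc25a10, which exchanges malate and succinate for phosphate and other anions (chr11:120491840-120499187, plus strand), had 54.3, 51.6 and 50.1 CPM in the rescue libraries, 43.1, 49.1 and 49.1 in the knockout libraries and 27.8, 19.0 and 25.2 in the empty vector libraries. Empty vector libraries stood below all the rest. The change was 0.96 ± 0.10 (SE; adjusted p = 8.70e-07) in knockout and 1.10 ± 0.10 (SE; adjusted p = 4.47e-07) in rescue against empty vector, and rescue against knockout gave 0.14 ± 0.10 (SE; adjusted p = 0.234). The citrate carrier Slc25a1 (chr16:17925223-17928219, minus strand), which exports citrate for lipid synthesis, had 119, 129 and 129.6 CPM in the rescue libraries, 132, 139 and 145 in the knockout libraries and 103, 76.2 and 82.7 in the empty vector libraries. It too was lowest in all empty vector libraries, with a change of 0.67 ± 0.09 (SE; adjusted p = 4.85e-06) in knockout and 0.52 ± 0.09 (SE; adjusted p = 1.16e-04) in rescue, and -0.15 ± 0.09 (SE; adjusted p = 0.164) between rescue and knockout. Slc25a34, a carrier without a settled substrate, had 19.7, 18.7 and 16.5 CPM in the rescue libraries, 21.2, 23.3 and 22.5 in the knockout libraries and 13.9, 13.2 and 13.1 in the empty vector libraries. Here the 3 groups were apart, knockout highest and empty vector lowest. Its change was 0.73 ± 0.09 (SE; adjusted p = 1.19e-06) in knockout against empty vector and -0.28 ± 0.09 (SE; adjusted p = 0.0127) in rescue against knockout, a call that library totals alone ended (-0.09, adjusted p = 0.407) and that was also lost without rescue replicate 3 or knockout replicate 2. Slc25a35, its near relative, had 1.78, 1.59 and 2.26 CPM in the rescue libraries, 2.42, 3.47 and 3.58 in the knockout libraries and 1.64, 2.12 and 1.89 in the empty vector libraries. Knockout libraries were above all others, and rescue and empty vector libraries overlapped. The change was 0.76 ± 0.23 (SE; adjusted p = 0.00778) in knockout against empty vector and -0.77 ± 0.23 (SE; adjusted p = 0.00818) in rescue against knockout, and without knockout replicate 3 it missed the threshold in both (adjusted p = 0.0527 and 0.0542). Slc25a27, a relative of the uncoupling proteins best known from brain, had 7.84, 6.52 and 6.16 CPM in the rescue libraries, 6.74, 6.86 and 5.77 in the knockout libraries and 8.03, 11.6 and 11.3 in the empty vector libraries. Empty vector libraries were the highest 3, though their replicate 1 lay close to the highest rescue library. Its change was -0.69 ± 0.15 (SE; adjusted p = 6.97e-04) in knockout and -0.57 ± 0.15 (SE; adjusted p = 0.00350) in rescue against empty vector. Slc25a30, a kidney-rich relative of the uncoupling proteins, changed by -0.35 (adjusted p = 1.88e-04) in knockout against empty vector and 0.23 (adjusted p = 0.00663) in rescue against knockout. The 2-oxoglutarate/malate carrier Slc25a11, a part of the malate-aspartate shuttle, passed in no comparison and averaged 54.3 ± 0.921, 53.7 ± 1.26 and 50.9 ± 6.93 CPM in rescue, knockout and empty vector (SD, n = 3 each). Slc25a14 also passed in none, and the oxodicarboxylate carrier Slc25a21 had 0 to 4 counts a library.

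Of the amino acid carriers, 2 of 7 tested were higher and 4 lower in knockout than in empty vector cells, beside 29.5% and 31.1% of all genes, and none changed by 1.5-fold. The aspartate/glutamate carriers of the malate-aspartate shuttle, Slc25a12 and Slc25a13, had different patterns. Slc25a12 had 72.7, 68.1 and 67.8 CPM in the rescue libraries, 55.1, 54.5 and 56.3 in the knockout libraries and 67.8, 70.9 and 78.4 in the empty vector libraries. Knockout libraries were lowest, and rescue and empty vector libraries overlapped. The log2 change was -0.39 ± 0.07 (SE; adjusted p = 4.60e-05) in knockout against empty vector and 0.33 ± 0.07 (SE; adjusted p = 2.78e-04) in rescue against knockout. Slc25a13, the form of liver and kidney, had 73.6, 74.6 and 69.9 CPM in the rescue libraries, 55.1, 53.4 and 61.1 in the knockout libraries and 55.8, 47.1 and 45.3 in the empty vector libraries. Rescue libraries stood clear above the others, whose ranges met at empty vector replicate 1. The change was 0.36 ± 0.08 (SE; adjusted p = 5.19e-04) in rescue against knockout and 0.56 ± 0.08 (SE; adjusted p = 8.08e-06) in rescue against empty vector, while the small rise in knockout, 0.20 ± 0.08 (SE; adjusted p = 0.0359), lost its call in 8 alternatives, DESeq2 among them (adjusted p = 0.0553). Slc25a15, the ornithine carrier that serves the urea cycle, had 43.0, 47.9 and 47.4 CPM in the rescue libraries, 32.4, 33.5 and 34.8 in the knockout libraries and 37.6, 32.5 and 30.7 in the empty vector libraries. It was higher in all rescue libraries than in all others, by 0.45 ± 0.08 (SE; adjusted p = 6.98e-05) over knockout and 0.45 ± 0.08 (SE; adjusted p = 9.81e-05) over empty vector. The glutamate carrier Slc25a22 had 41.7, 39.98 and 40.3 CPM in the rescue libraries, 45.6, 47.7 and 49.4 in the knockout libraries and 51.6, 66.0 and 61.2 in the empty vector libraries. Its groups were in the order rescue, knockout, empty vector from low to high, with -0.32 ± 0.08 (SE; adjusted p = 0.00153) in knockout against empty vector, -0.55 ± 0.08 (SE; adjusted p = 1.18e-05) in rescue against empty vector and -0.23 ± 0.08 (SE; adjusted p = 0.0200) in rescue against knockout, the last lost under 6 alternatives (with library totals alone, -0.04, adjusted p = 0.690). Slc25a29, a carrier of basic amino acids, was lower in knockout (log2 change -0.50, adjusted p = 5.36e-04) and in rescue (log2 change -0.31, adjusted p = 0.0196) than in empty vector cells. The change in rescue missed the threshold in 4 alternatives, DESeq2 among them (adjusted p = 0.0594). Slc25a44, a carrier of branched-chain amino acids, was lower in knockout (log2 change -0.23, adjusted p = 0.00836) and rescue (log2 change -0.36, adjusted p = 2.77e-04) than in empty vector cells. The glycine carrier Slc25a38, needed for haem synthesis, was higher in knockout than in empty vector cells (log2 change 0.40, adjusted p = 0.0161), although libraries overlapped. That call was lost in 5 alternatives, among them leaving out knockout replicate 3 (adjusted p = 0.118). Slc25a18, the other glutamate carrier, had 1, 1 and 0 counts in the rescue libraries, 4, 6 and 8 in the knockout libraries and 2, 5 and 1 in the empty vector libraries. Slc25a2, the other ornithine carrier, had 3, 1 and 2 counts in the rescue libraries, 3, 7 and 2 in the knockout libraries and 3, 1 and 3 in the empty vector libraries. Both are near the limit of detection at this depth.

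**Figure D3:**
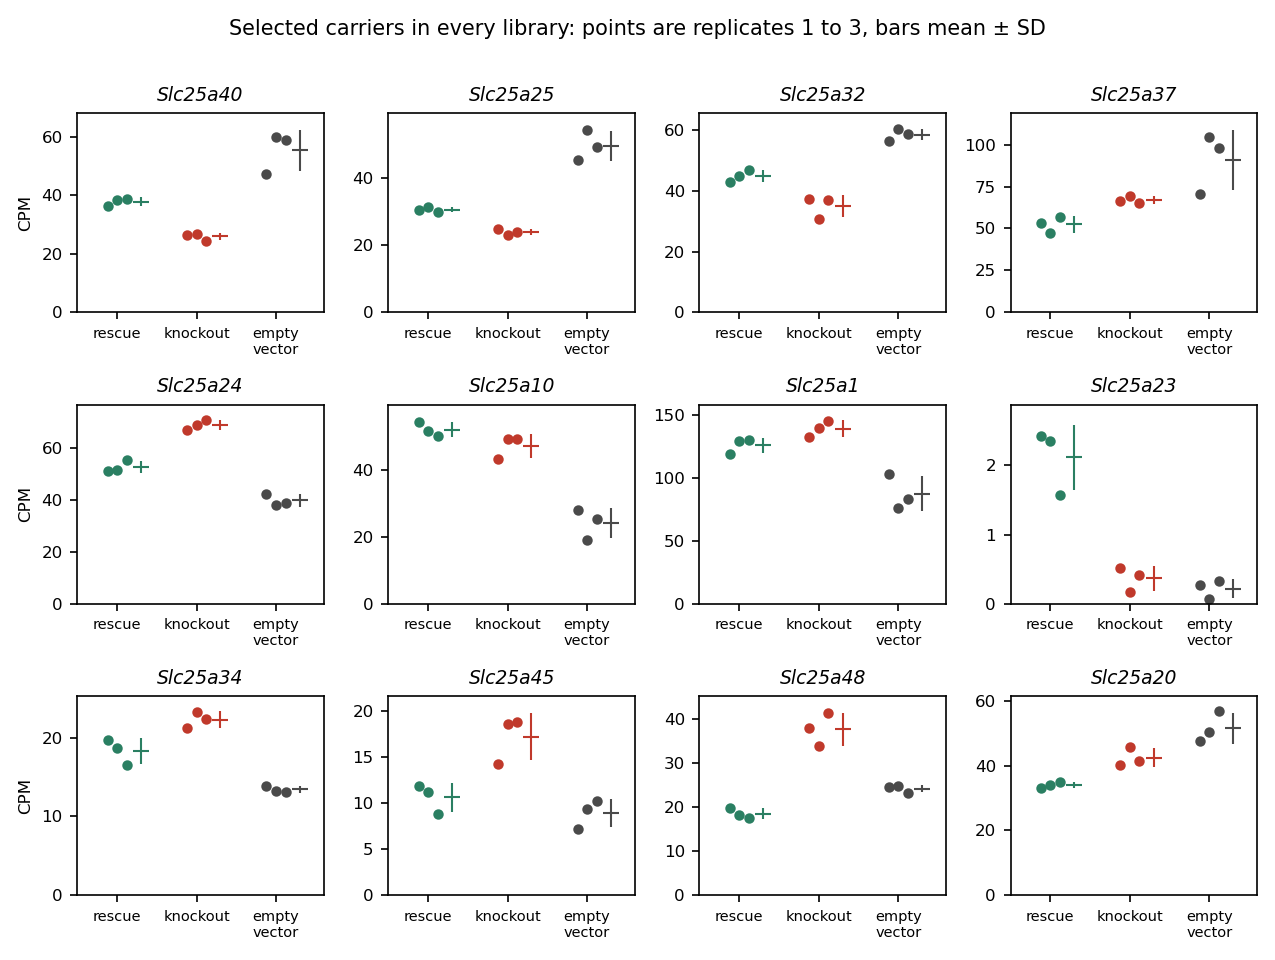
Level of 12 carriers in each library (CPM, axes from 0), rescue, knockout and empty vector from left to right, points for replicates 1 to 3 and bars for mean ± SD. Slc25a40, Slc25a25 and Slc25a32 are lowest in knockout and highest in empty vector libraries, Slc25a24, Slc25a34 and Slc25a48 are highest in knockout libraries, and Slc25a23 is high in rescue libraries alone.

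Carriers of nucleotides, cofactors and acylcarnitine were 3 higher and 5 lower of 10 tested in knockout against empty vector cells, beside 29.5% and 31.1% of all genes. Slc25a32, which brings folate and flavin cofactors into the matrix (chr15:39091231-39112716, minus strand), had 43.0, 45.0 and 46.7 CPM in the rescue libraries, 37.2, 30.6 and 37.03 in the knockout libraries and 56.6, 60.3 and 58.6 in the empty vector libraries. The 3 groups did not overlap, and rescue lay between the others. The log2 change was -0.73 ± 0.07 (SE; adjusted p = 7.17e-08) in knockout against empty vector, 0.35 ± 0.08 (SE; adjusted p = 5.36e-04) in rescue against knockout and -0.38 ± 0.07 (SE; adjusted p = 2.52e-04) in rescue against empty vector. Slc25a33, a pyrimidine nucleotide carrier induced by growth signals, had 84.0, 90.4 and 92.7 CPM in the rescue libraries, 59.4, 58.8 and 66.2 in the knockout libraries and 99.0, 85.0 and 87.6 in the empty vector libraries. Knockout libraries were lowest, and rescue and empty vector libraries overlapped. Its change was -0.56 ± 0.07 (SE; adjusted p = 1.56e-06) in knockout against empty vector and 0.53 ± 0.07 (SE; adjusted p = 3.43e-06) in rescue against knockout, with -0.03 ± 0.07 (SE; adjusted p = 0.771) between rescue and empty vector. The other pyrimidine nucleotide carrier, Slc25a36 (chr9:97074961-97111157, minus strand), had 47.3, 45.2 and 47.9 CPM in the rescue libraries, 55.0, 55.8 and 48.9 in the knockout libraries and 70.6, 81.3 and 73.5 in the empty vector libraries. Its rescue libraries were the lowest 3. It changed by -0.50 ± 0.07 (SE; adjusted p = 4.92e-06) in knockout and -0.68 ± 0.07 (SE; adjusted p = 2.77e-07) in rescue against empty vector, and by -0.18 ± 0.07 (SE; adjusted p = 0.0387) in rescue against knockout, a difference that was 0.00434 (adjusted p = 0.966) with library totals alone and missed the threshold in 8 other alternatives. Slc25a36 shares 3285 bases with the antisense gene Gm16185, whose mean was 3.40, 6.06 and 7.38 CPM in rescue, knockout and empty vector. The carnitine/acylcarnitine carrier Slc25a20 (chr9:108662088-108684641, plus strand), which admits fatty acids for oxidation, had 33.2, 34.0 and 35.0 CPM in the rescue libraries, 40.2, 45.8 and 41.6 in the knockout libraries and 47.5, 50.3 and 56.8 in the empty vector libraries. The order was again rescue below knockout below empty vector, with no overlap. Its change was -0.28 ± 0.08 (SE; adjusted p = 0.00296) in knockout and -0.60 ± 0.08 (SE; adjusted p = 2.72e-06) in rescue against empty vector, and -0.32 ± 0.08 (SE; adjusted p = 0.00151) between rescue and knockout, the last not called with library totals alone (-0.13, adjusted p = 0.163). Slc25a26, which imports S-adenosylmethionine for methylation in the matrix, had 5.17, 4.55 and 3.52 CPM in the rescue libraries, 6.55, 6.28 and 5.44 in the knockout libraries and 4.13, 3.92 and 3.85 in the empty vector libraries. Knockout libraries stood above the rest, and rescue and empty vector libraries overlapped. It changed by 0.61 ± 0.17 (SE; adjusted p = 0.00365) in knockout against empty vector and by -0.43 ± 0.16 (SE; adjusted p = 0.0298) in rescue against knockout, where 7 alternatives ended the call, with DESeq2 at an adjusted p of 0.0670. Its neighbour Lrig1, which overlaps it by 144 bases on the other strand, moved the opposite way (mean 9.34, 5.36 and 11.9 CPM in rescue, knockout and empty vector). Among the rest, the NAD+ carrier Slc25a51 was higher in knockout (log2 change 0.26, adjusted p = 0.00110) and rescue (log2 change 0.30, adjusted p = 4.82e-04) than in empty vector cells, and the peroxisomal carrier Slc25a17 was higher in rescue than in knockout (log2 change 0.26, adjusted p = 0.00320) or empty vector cells (log2 change 0.40, adjusted p = 8.94e-05). The rise of Slc25a51 in knockout was not called with library totals alone (0.11, adjusted p = 0.155). Slc25a16, a carrier linked to coenzyme A, was higher in rescue than in knockout cells (log2 change 0.45, adjusted p = 2.15e-04) and, less firmly, than in empty vector cells (log2 change 0.26, adjusted p = 0.0203; adjusted p = 0.0959 without rescue replicate 2). The coenzyme A carrier Slc25a42 was lower in knockout than in empty vector cells (log2 change -0.41, adjusted p = 0.0136), with overlapping libraries and no call without knockout replicate 1 or empty vector replicate 2.

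Of the iron and glutathione carriers, 3 of 4 were lower in knockout than in empty vector cells and none was higher, beside 31.1% and 29.5% of all genes, a count on few members. Slc25a40, a glutathione carrier (chr5:8422850-8454797, plus strand), had the lowest log2 change of all 40 carriers in knockout against empty vector cells, with 36.3, 38.5 and 38.9 CPM in the rescue libraries, 26.4, 26.9 and 24.6 in the knockout libraries and 47.4, 59.9 and 59.0 in the empty vector libraries. Every knockout library was below every rescue library, and every rescue library below every empty vector library. The log2 change was -1.10 ± 0.09 (SE; adjusted p = 1.94e-09) in knockout against empty vector, 0.55 ± 0.09 (SE; adjusted p = 2.23e-05) in rescue against knockout and -0.55 ± 0.08 (SE; adjusted p = 2.01e-05) in rescue against empty vector. Its abundant relative Slc25a39 (chr11:102402985-102407946, minus strand) had 522, 555 and 547 CPM in the rescue libraries, 591, 570.2 and 586 in the knockout libraries and 581, 539 and 552 in the empty vector libraries. It passed in no comparison, with 0.06 ± 0.06 (SE; adjusted p = 0.396) in knockout against empty vector and -0.11 ± 0.06 (SE; adjusted p = 0.156) in rescue against knockout. The mitoferrin Slc25a37, the iron importer of erythroid cells (chr14:69241848-69285112, minus strand), had 53.0, 47.2 and 57.1 CPM in the rescue libraries, 66.4, 69.6 and 65.0 in the knockout libraries and 70.4, 104 and 97.8 in the empty vector libraries. Rescue libraries were lowest and empty vector libraries highest, with empty vector replicate 1 close to the knockout libraries. It changed by -0.44 ± 0.13 (SE; adjusted p = 0.0133) in knockout and -0.79 ± 0.13 (SE; adjusted p = 5.65e-04) in rescue against empty vector, and by -0.35 ± 0.13 (SE; adjusted p = 0.0431) in rescue against knockout. The change in knockout missed the threshold without knockout replicate 3 (adjusted p = 0.0540), and that between rescue and knockout missed it in 7 alternatives, with library totals alone at an adjusted p of 0.390. Slc25a28, the mitoferrin of other tissues, had 44.3, 46.7 and 45.6 CPM in the rescue libraries, 39.0, 37.5 and 37.7 in the knockout libraries and 42.8, 55.4 and 50.2 in the empty vector libraries. Knockout libraries were lowest, and the rescue and empty vector libraries overlapped. Its change was -0.37 ± 0.08 (SE; adjusted p = 4.73e-04) in knockout against empty vector and 0.26 ± 0.08 (SE; adjusted p = 0.00998) in rescue against knockout.

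Among the remaining carriers, from the outer membrane or with a role less settled, 2 of 5 tested were higher and 1 lower in knockout than in empty vector cells, beside 29.5% and 31.1% of all genes. Slc25a48, which has been linked to choline import (chr13:56438355-56474239, plus strand), had 19.9, 18.1 and 17.4 CPM in the rescue libraries, 38.0, 33.8 and 41.3 in the knockout libraries and 24.6, 24.7 and 23.2 in the empty vector libraries. All 3 groups were apart, knockout highest and rescue lowest. The log2 change was 0.65 ± 0.08 (SE; adjusted p = 1.88e-06) in knockout against empty vector, -1.03 ± 0.09 (SE; adjusted p = 5.87e-09) in rescue against knockout and -0.38 ± 0.09 (SE; adjusted p = 0.00142) in rescue against empty vector. Slc25a45 (chr19:5877808-5885766, plus strand) had 11.8, 11.2 and 8.87 CPM in the rescue libraries, 14.3, 18.6 and 18.9 in the knockout libraries and 7.24, 9.32 and 10.2 in the empty vector libraries. Knockout libraries were the highest 3, while rescue and empty vector libraries overlapped. It changed by 0.95 ± 0.14 (SE; adjusted p = 1.73e-05) in knockout against empty vector and -0.69 ± 0.14 (SE; adjusted p = 4.51e-04) in rescue against knockout. Slc25a46, a protein of the outer membrane that takes part in mitochondrial dynamics, was lower in knockout than in empty vector cells (log2 change -0.57, adjusted p = 8.70e-06) and higher in rescue than in knockout cells (log2 change 0.38, adjusted p = 8.30e-04). Slc25a47, a liver carrier, and Slc25a53 had 8 to 84 counts a library and passed in no comparison.

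Related carriers with the same kind of substrate were then set against each other as shares of their summed FPKM within a library, a measure that does not depend on scaling between libraries. Slc25a24 made up 77.5, 77.3 and 79.8% in the rescue libraries, 85.8, 87.1 and 86.9% in the knockout libraries and 68.0, 61.5 and 64.4% in the empty vector libraries of the sum of Slc25a23, Slc25a24 and Slc25a25. Slc25a25 made up 19.8 ± 0.878% in rescue, 13.1 ± 0.608% in knockout and 35.1 ± 3.34% in empty vector (SD, n = 3 each). Neither share overlapped between any pair of groups. Slc25a13 made up 66.2, 67.9 and 66.6% in the rescue libraries, 65.9, 65.4 and 67.7% in the knockout libraries and 61.4, 56.2 and 52.8% in the empty vector libraries of the aspartate/glutamate carriers. Rescue and knockout libraries had like shares, above those of all empty vector libraries. Slc25a5 made up 53.7 ± 0.824% in rescue, 57.2 ± 0.444% in knockout and 53.0 ± 1.92% in empty vector (SD, n = 3 each) of the ADP/ATP carriers with Slc25a4, highest in the knockout libraries. Slc25a37 made up 22.4 ± 1.93% in rescue, 30.7 ± 0.981% in knockout and 31.4 ± 1.91% in empty vector (SD, n = 3 each) of the mitoferrins, and Slc25a36 9.39 ± 0.519% in rescue, 14.6 ± 1.67% in knockout and 14.1 ± 1.77% in empty vector (SD, n = 3 each) of the pyrimidine nucleotide carriers. Both shares were lowest in all rescue libraries and overlapped between knockout and empty vector. Slc25a40 was a small part of the glutathione carriers, at 2.25 ± 0.0323% in rescue, 1.44 ± 0.0852% in knockout and 3.18 ± 0.496% in empty vector (SD, n = 3 each). Slc25a18 reached at most 3.15% of its pair and Slc25a2 at most 6.62%, on 0 to 8 counts. Exact two-sided permutation tests with 3 against 3 libraries cannot go below p = 0.1. Over the 30 tests made, the lowest p was 0.1 and the lowest Benjamini-Hochberg adjusted p was 0.143, so these shares are given as measured values.

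**Figure D4:**
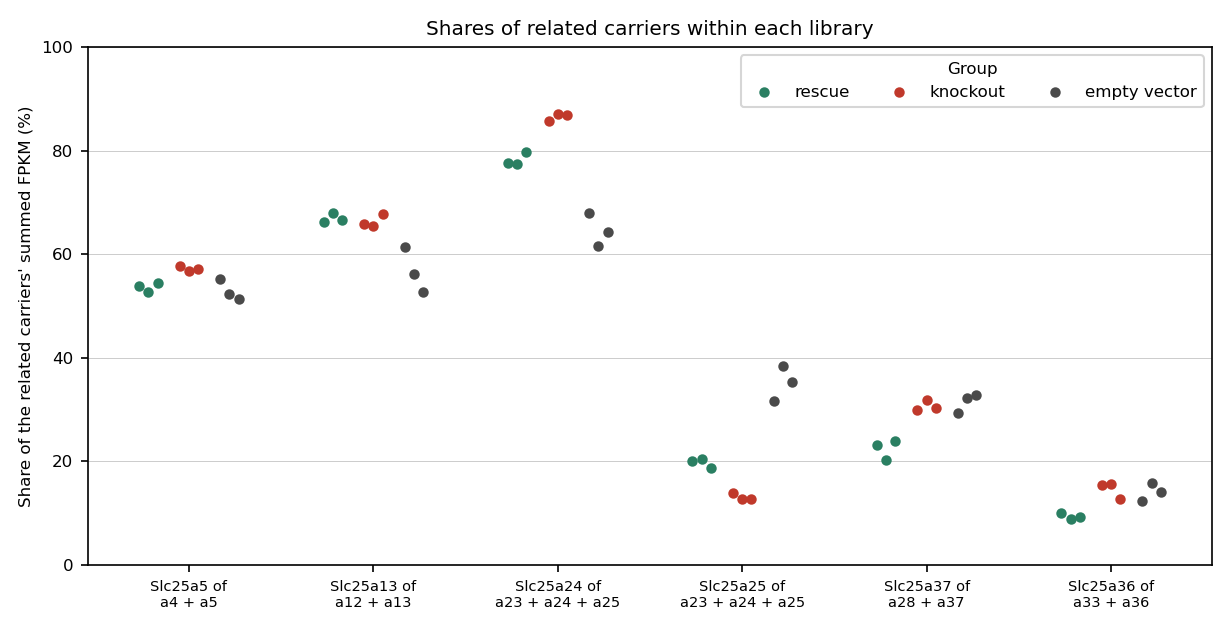
Share of a carrier in the summed FPKM of its relatives (percent, axis from 0 to 100), 1 point per library with rescue, knockout and empty vector from left to right. The share of Slc25a24 averages 78.2% in rescue, 86.6% in knockout and 64.6% in empty vector libraries.

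Other genes of mitochondrial transport and metabolism also went both ways. Of 10 tested carriers and carrier-like proteins outside the Slc25a names, 2 were higher and 3 lower in knockout than in empty vector cells (20% and 30%, beside 29.5% and 31.1% of all genes). The uncoupling protein Ucp2 had 245, 252 and 251 CPM in the rescue libraries, 309, 316 and 344 in the knockout libraries and 233, 197 and 203 in the empty vector libraries, and its change was 0.62 (adjusted p = 2.72e-07) in knockout against empty vector and -0.37 (adjusted p = 1.19e-04) in rescue against knockout. Mtch2, an insertase of the outer membrane, changed by 0.45 (adjusted p = 5.55e-06) in rescue against knockout, with -0.01 (adjusted p = 0.901) in knockout against empty vector. Among the sideroflexins, Sfxn3 was higher (log2 change 0.65, adjusted p = 2.92e-06) and Sfxn2 lower (log2 change -0.81, adjusted p = 2.26e-04) in knockout than in empty vector cells. Of 12 tested channels and calcium transporters, 3 were higher and 6 lower in knockout than in empty vector cells (25% and 50%, beside 29.5% and 31.1% of all genes). The sodium/calcium exchanger Slc8b1 rose (log2 change 0.90, adjusted p = 2.25e-08) and the calcium uniporter regulator Micu3 fell (log2 change -0.84, adjusted p = 1.66e-05), and both moved back in rescue against knockout (log2 change -0.96, adjusted p = 1.04e-08 and log2 change 0.64, adjusted p = 3.88e-04). Of 22 enzymes that use the carriers' substrates, 10 were higher and 7 lower in knockout than in empty vector cells (45.5% and 31.8%, beside 29.5% and 31.1% of all genes). In rescue against knockout cells 6 were higher and 10 lower (27.3% and 45.5%, beside 29.5% and 27.3%). The 7 lower in knockout and the 6 higher in rescue are close to the shares of all genes. The isocitrate dehydrogenase Idh1 had 99.8, 98.2 and 90.1 CPM in the rescue libraries, 147, 154 and 162 in the knockout libraries and 41.1, 31.7 and 34.7 in the empty vector libraries. Its change was 2.10 ± 0.08 (SE; adjusted p = 1.51e-13) in knockout against empty vector and -0.69 ± 0.08 (SE; adjusted p = 3.07e-07) in rescue against knockout. Arg2, the mitochondrial arginase that makes ornithine, changed by 1.41 (adjusted p = 2.91e-07) in knockout against empty vector and -1.17 (adjusted p = 2.83e-06) in rescue against knockout, and pyruvate carboxylase, Pcx, by 1.22 (adjusted p = 2.08e-10) and -1.02 (adjusted p = 2.19e-09). Oat, which uses ornithine in the matrix, was higher in rescue than in knockout (log2 change 0.94, adjusted p = 1.36e-08) and empty vector cells (log2 change 1.15, adjusted p = 3.44e-09).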

How the data were processed

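The data are 9 poly(A) RNA libraries of RENCA cells, 3 per group. Directional and non-directional preparation are both described, per the labels' protocols, and the sources used here do not state whether reads were counted by strand. Of the 47 carriers, 23 overlap another gene. The molecule is labelled genomic DNA, and the series text gives fewer knockout libraries than the 3 present, all of which entered the fit. CASAVA, HISAT2, HISAT and TopHat2 and the build mm10 are named in the submitters' processing notes; no read counter is named in the sources used here. The authors deposited whole-number counts per gene, not normalized, per the file headers. The authors also deposited FPKM per library, per the file headers, which follow the counts and gene length up to a constant per library. That constant was 0.926 to 1.10 times the one expected from the count total, so FPKM served only to compare genes within a library. The FPKM of single genes was not tested between groups. The shares within a library, taken from FPKM, were compared between groups by the permutation tests. The table's log2 fold changes and p-values, deposited by the authors, were not used.

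Testing used edgeR 4.0.16 (R 4.3.3) on the raw counts. filterByExpr kept 13326 of 54532 genes, TMM factors set the library sizes, and 1 robust quasi-likelihood fit with a mean per group took in all 9 libraries. P-values were adjusted by the Benjamini-Hochberg method over every gene in the fit, with 0.05 as the threshold for a call. Standard errors were taken as the log2 change over the root of the F statistic. The script was tested on simulated data. Alternatives were RLE and upper-quartile factors, library totals alone, the mitochondrial genome left out, no filter, DESeq2 1.42.0, only the groups compared, a replicate block, and each library left out in turn. Values in every library are given for carriers called with at least a 1.5-fold change in any comparison, up to 5 per substrate group, and for related carriers compared as shares; genes of the other transport lists were named by largest change. Libraries of 1 group were further apart than read sampling gives (chi-square per degree of freedom 3.64 to 20.1), and none was merged. Members and lists were chosen with earlier results of these data known. Promoters come from RefSeq, GRCm38.p6. The floors for a count of 0 cover counting error only. SD and SE cover differences among the libraries of a group and no more. The values of 1 tested carrier and 1 marker are not reported here, though they enter the counts and sums.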

Additional observations from a re-analysis of the deposited data

How the results depend on the processing

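Across the alternatives, 1540 of the values for single carriers kept their direction and side of the threshold, 72 lost a call and 30 gained one. A further 36 passed the threshold in neither fit and changed sign, with log2 values from -0.257 to 0.105 and adjusted p of at least 0.162, 10 of them with library totals alone. The 1 called value that changed sign was Slc25a36 in rescue against knockout, at 0.00434 (adjusted p = 0.9664) with library totals alone against -0.18 (adjusted p = 0.0387) with TMM; the median of all genes moved by 0.18 there. The number of carriers lower in rescue than in knockout was 11 with TMM, 4 with library totals alone and 15 with only those groups fitted. Those fits had 3639 of 13326, 2582 of 13326 and 4047 of 13009 genes lower. The number of carriers ranged from 6 to 9 when 1 library was left out, 6 without knockout replicate 2 (beside 3422 of 13862 genes). With library totals alone the calls were 9 higher and 18 lower in knockout against empty vector, beside 2906 and 5544 of 13326 genes. In rescue against knockout that scaling gave 20 higher and 4 lower, beside 5916 and 2582 of 13326 genes. The other counts of called carriers stayed within 1.5 times in every alternative run. Calls held in every alternative for 8 of 13 carriers higher and 14 of 17 lower in knockout against empty vector. In rescue against knockout they held for 15 of 15 higher and 3 of 11 lower. In rescue against empty vector they held for 11 of 12 higher and 10 of 11 lower. Among the 15 and the 12 is Slc25a23, which passed the filter on low counts through its rescue libraries alone. Nothing is read from its calls in that tally. Without empty vector replicate 1, 16 carriers were higher and 17 lower in knockout than in empty vector cells, beside 4209 and 4217 of 13617 genes. In rescue against empty vector cells 15 were then higher and 14 lower, beside 3476 and 3483 of 13617 genes. Replicate numbers are shared between groups. Deviations of same-numbered libraries correlated at -0.163 to 0.0493, and those of different-numbered libraries at -0.100 to 0.112. Same-numbered libraries thus did not deviate together, which cannot show whether they were prepared together. With a replicate block 13 carriers were higher and 16 lower in knockout than in empty vector cells (beside 3852 and 4038 of 13326 genes). The block gave 15 and 11 in rescue against knockout (beside 3822 and 3545 genes). It gave 12 and 11 in rescue against empty vector (beside 2859 and 3232 genes). Depth limits Slc25a23, Slc25a35, Slc25a47, Slc25a53 and the 7 untested carriers, whose counts are low.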
